A study of Mus musculus with 16 samples.

Results

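The small leucine-rich proteoglycans are secreted matrix proteins built from leucine-rich repeats, and 10 of them are described here in cardiac fibroblasts: decorin (Dcn), biglycan (Bgn), asporin (Aspn), fibromodulin (Fmod), lumican (Lum), prolargin (Prelp), osteomodulin (Omd), osteoglycin (Ogn), podocan (Podn) and chondroadherin (Chad). They were taken by gene symbol, and all 10 were found in each of the 3 deposited tables, which list 18634, 17303 and 17730 genes. The study asked what the transcription factor TCF21 does in these cells, by deleting or overexpressing it. Fibroblasts were sorted by flow cytometry from hearts of mice aged 8 to 12 weeks, in 16 libraries of 6 groups, 2 to a table. All mice carried a Rosa26 reporter with a loxP-flanked stop in front of enhanced green fluorescent protein, which Cre switches on, and all received tamoxifen.

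In the loss arm, Tcf21-MerCreMer mice were the controls and Tcf21-MerCreMer:Tcf21-fl mice lost Tcf21, so both carried the Cre driven from Tcf21. The uninjured groups, with 3 control and 3 deleted libraries, were taken 2 weeks after tamoxifen. The infused groups, with 3 control and 2 deleted libraries, received angiotensin II and phenylephrine for 1 week after tamoxifen, a treatment that drives cardiac fibrosis. In the gain arm, Pdgfra-creERT mice were the controls (3 libraries) and Pdgfra-creERT:Col1a1-TCF21 mice overexpressed TCF21 (2 libraries), both after tamoxifen and the same infusion. The reporter marks cells in which the Cre was active, so the loss arm holds cells that had used the Tcf21 promoter and the gain arm cells that had used the Pdgfra promoter. The libraries held 27814900 to 40970400 normalized counts each. The labels do not state whether 1 animal gave 1 library, and the tests therefore read library-to-library spread, which may be technical.

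Small leucine-rich proteoglycans bind fibrillar collagen and set the spacing and width of its fibrils. Class I members (Dcn, Bgn, Aspn) are the main ones; Dcn and Bgn carry chondroitin or dermatan sulphate chains and bind transforming growth factor beta. Class II members (Fmod, Lum, Prelp, Omd) include the keratan sulphate proteoglycans Fmod and Lum, which compete for sites on collagen. Ogn is a class III member, and Chad and Podn belong to further, less studied classes. In the heart these genes are largely products of fibroblasts and are known to change when scar or interstitial collagen is laid down.

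Several members are neighbours in the genome (GENCODE vM21 positions, GRCm38). On chromosome 1, Prelp (133910304 to 133921414, minus strand) and Fmod (134037254 to 134048277, plus strand) lie 116 kb apart. On chromosome 10, Dcn (97479609 to 97518143) and Lum (97565128 to 97572703) lie 47.0 kb apart on the plus strand, followed by the family genes Kera (keratocan) and Epyc (epiphycan). Tcf21 itself is on chromosome 10, 74.7 Mb away from Dcn. On chromosome 13, Aspn (49544443 to 49567565), Omd (49582462 to 49592822) and Ogn (49608046 to 49624501) follow one another on the plus strand, 14.9 and 15.2 kb apart, behind the related Ecm2. Bgn is on chromosome X (73483602 to 73495933), Podn on chromosome 4 (108014791 to 108096445, minus strand) and Chad on chromosome 11 (94565047 to 94569127). Annotated exons of the members overlap those of 2 other genes on the opposite strand, Gm15851 with 350 bases of Prelp and Cenpp with 7 bases of Aspn. Gm15851 is in none of the 3 tables.

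TCF21 is a basic helix-loop-helix factor, and such factors bind E-boxes, CANNTG, of which CAGCTG is one form. The 250 bases before the RefSeq start site (GRCm38.p6) are shown, 5′ to 3′ and with each CANNTG in capitals, for the 3 members that fell after TCF21 gain (Fmod, Ogn and Chad) and for Bgn, an abundant member that did not. Fmod is chr1:134037004-134037253, Ogn chr13:49607765-49608014, Chad chr11:94564797-94565046 and Bgn chrX:73483351-73483600, all on the plus strand.
Fmod: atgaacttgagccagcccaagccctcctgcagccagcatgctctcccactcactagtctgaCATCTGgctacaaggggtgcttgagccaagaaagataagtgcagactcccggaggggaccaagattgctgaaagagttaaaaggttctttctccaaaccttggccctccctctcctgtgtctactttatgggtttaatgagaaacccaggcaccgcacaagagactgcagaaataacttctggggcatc
Ogn: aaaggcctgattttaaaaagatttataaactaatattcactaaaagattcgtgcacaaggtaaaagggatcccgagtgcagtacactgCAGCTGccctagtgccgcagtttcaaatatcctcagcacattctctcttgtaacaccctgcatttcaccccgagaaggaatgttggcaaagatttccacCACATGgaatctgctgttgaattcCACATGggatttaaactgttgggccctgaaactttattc
Chad: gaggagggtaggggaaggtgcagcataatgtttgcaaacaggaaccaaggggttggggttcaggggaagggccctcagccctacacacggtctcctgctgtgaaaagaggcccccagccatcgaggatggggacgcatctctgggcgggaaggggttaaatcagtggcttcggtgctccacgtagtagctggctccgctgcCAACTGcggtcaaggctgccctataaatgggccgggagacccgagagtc
Bgn: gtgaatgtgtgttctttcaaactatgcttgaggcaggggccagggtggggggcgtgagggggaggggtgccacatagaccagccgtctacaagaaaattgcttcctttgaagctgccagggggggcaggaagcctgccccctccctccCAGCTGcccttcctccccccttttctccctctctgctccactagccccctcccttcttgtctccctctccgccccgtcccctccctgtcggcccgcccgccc
RefSeq windows of 300 bases, from 250 before to 50 after the start, were found for 8 of the 10 members; Dcn and Lum were not matched. CANNTG, searched on both strands, occurred in a window of 7 of these 8 members (not in that of Omd) and in 72.3% of 32851 mouse promoter windows of the same length. CAGCTG, which is a form of CANNTG, occurred in the windows of 3 members, Bgn at -102, Ogn at -162 and Podn at -61 from the start, against 16.3% of all windows. Fmod held its only CANNTG at -189 and Chad at -49, neither of the form CAGCTG. The core of TEAD sites, CATTCC, occurred in 1 member (Ogn, at -86) and in 14.7% of all windows, and TGANTCA, the AP-1 site, in no member and in 7.81% of all windows. Matches are letters in a window and do not show binding.

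The targeted gene went with the labels in every library. Tcf21 (chromosome 10, 22817281 to 22820174, minus strand) lay at 7825, 8081 and 7507 normalized counts in uninjured controls and at 1244, 1254 and 1718 after deletion. After infusion it lay at 2814, 1802 and 1510 in controls and at 258 and 185 after deletion. In the gain arm it lay at 6058, 5145 and 6235 in controls and at 14820 and 13502 with the transgene, 2.44-fold higher. Groups did not overlap in any of the 3 tables.

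Levels of different members were compared per length, as normalized counts per kilobase of the mean annotated coding transcript. In uninjured control libraries Dcn stood far above the rest, at 566964 ± 16919 normalized counts per kilobase (SD, n = 3). Lum followed at 56534 ± 3779 and Bgn at 48830 ± 1057, and then Prelp at 20619 ± 885 and Ogn at 18870 ± 1388, whose library ranges overlapped. Aspn held 7546 ± 166, Podn 3313 ± 118, Fmod 1751 ± 414, Omd 925 ± 91.6 and Chad 320 ± 62.6 normalized counts per kilobase, each pair of neighbours with ranges apart. Over all listed genes, without regard to length, Dcn had the 2nd highest mean in these controls, while Fmod ranked 2225 and Chad 8325.

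**Figure D1:**
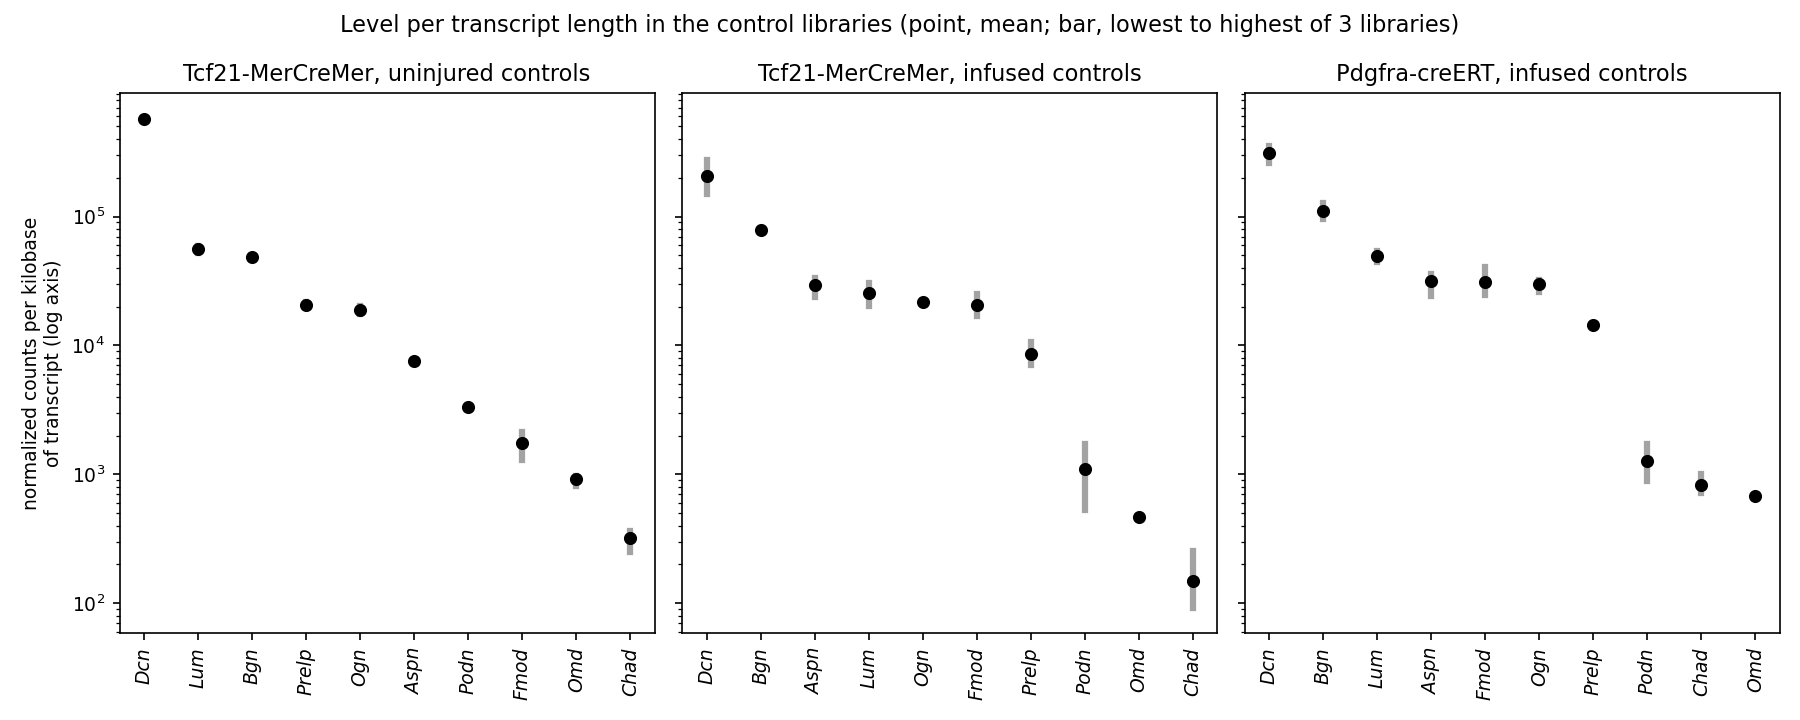
Normalized counts per kilobase of transcript (log axis) of each family gene in the 3 groups of control libraries; points are means and bars run from the lowest to the highest of 3 libraries, with genes in descending order within each panel. Dcn leads each panel, and Fmod is 8th of 10 in the uninjured controls, 6th in the infused Tcf21-MerCreMer controls and 5th in the infused Pdgfra-creERT controls.

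The order was another one in the infused controls. In infused Tcf21-MerCreMer controls Dcn (204995 ± 63726 normalized counts per kilobase, SD, n = 3) and Bgn (78849 ± 2654) led, with ranges apart. Aspn (29278 ± 4977), Lum (25589 ± 5176), Ogn (21708 ± 314) and Fmod (20654 ± 4035) formed a group in which each neighbour overlapped the next. Prelp (8586 ± 1865), Podn (1102 ± 597), Omd (465 ± 16.2) and Chad (149 ± 92.6) came last, with ranges apart. In infused Pdgfra-creERT controls Dcn (312531 ± 45778), Bgn (111438 ± 16369) and Lum (49686 ± 4737) led with ranges apart. Aspn (31594 ± 6421), Fmod (31320 ± 8246) and Ogn (30145 ± 3501) overlapped one another's neighbours, above Prelp (14481 ± 604). Podn (1275 ± 412) and Chad (821 ± 164) overlapped, and Omd was lowest at 677 ± 20.4 normalized counts per kilobase. With the longest transcript in place of the mean length, Fmod was at 18331 per kilobase in the last group, below Ogn, and 6th instead of 5th. In infused Tcf21-MerCreMer controls Fmod was then at 12088 per kilobase, apart from Ogn and overlapping Prelp, and Podn overlapped Omd. In uninjured controls Fmod then overlapped Omd.

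The make-up of the family, as shares of its summed normalized counts within a library, does not depend on how libraries were scaled. Dcn made up 63.5% to 65.6% of the family in uninjured controls, 31.6% to 45.7% in infused Tcf21-MerCreMer controls and 33.4% to 45.0% in infused Pdgfra-creERT controls. Fmod made up 0.213% to 0.350% in the uninjured controls, 4.07% to 7.61% in the infused loss-arm controls and 4.59% to 7.51% in the gain-arm controls. Aspn went from 1.53% to 1.64% in the uninjured controls to 7.27% to 12.0% and 5.70% to 8.20% in the 2 infused control groups. The uninjured and infused libraries sit in separately normalized tables and were not tested against each other, so infusion and table cannot be told apart. Among 16135 genes listed in all 3 tables, Fmod is 1 of 108 genes whose control mean in the uninjured table lay over 8-fold below those of the other tables while these lay within 2-fold of each other.

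**Figure D2:**
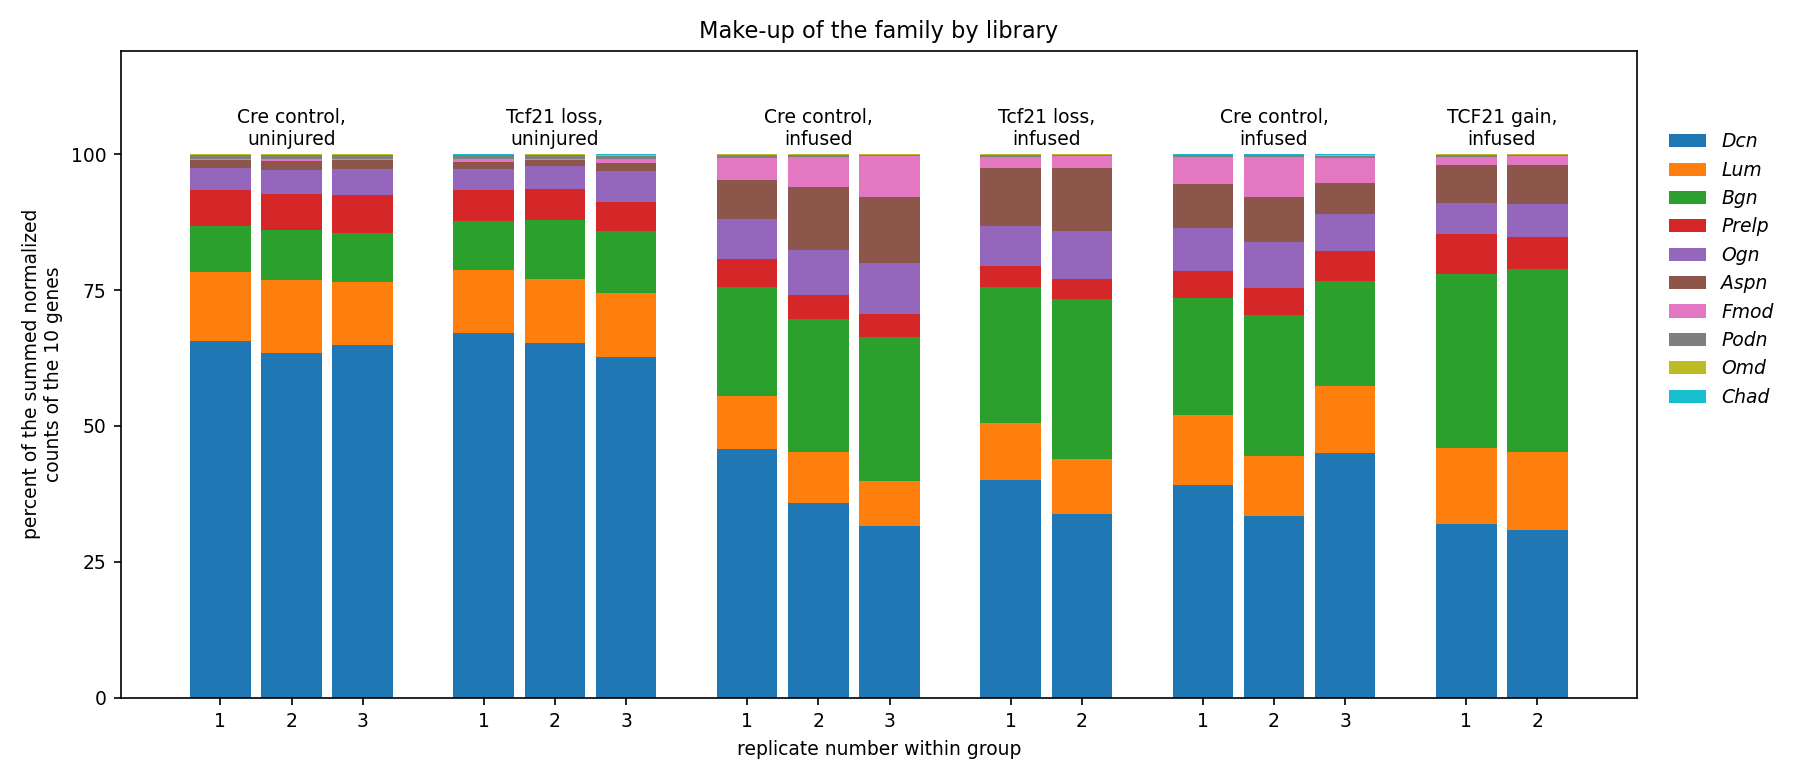
Share of each gene in the summed normalized counts of the 10 genes (percent, stacked to 100), 1 bar for each library, by group and replicate number. Dcn fills 63.5% to 65.6% of the bar in uninjured controls and 31.6% to 45.7% in infused Tcf21-MerCreMer controls, and the Fmod band is 1.58% to 1.59% in the gain libraries against 4.59% to 7.51% in their controls.

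Without injury, no member passed the test after loss of Tcf21. By limma on log2 values, with Benjamini-Hochberg adjustment over 15544 genes and a threshold of 0.05, 0 of 10 members were called, against 3.58% of all genes tested (1.63% higher and 1.96% lower). An unadjusted p below 0.05 was found for 3 members, beside 3290 of the 15544 genes. The members' median log2 fold change was 0.16, against -0.01 over all genes, with 8 above and 2 below 0. In 3 members the groups did not overlap, Dcn and Bgn higher and Prelp lower; over all genes tested 27.7% did not overlap, 14.1% higher and 13.6% lower.

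Bgn came closest among the class I genes. It held 95125, 99183 and 98159 normalized counts in controls and 112007, 131875 and 141737 after deletion, every deleted library above every control. The log2 fold change was 0.39 (SE 0.106, limma adjusted p = 0.0782). Dcn lay at 731166, 689348 and 716941 in controls and at 825317, 799288 and 769431 after deletion, also apart but by 1.12-fold (log2 fold change 0.16, limma adjusted p = 0.518). Aspn held 17075, 17817 and 17618 against 16222, 12628 and 19058 normalized counts, and the groups overlapped.

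Among class II genes Fmod varied most between the deleted libraries. Its controls held 2373, 3362 and 3859 normalized counts and the deleted libraries 6494, 3326 and 8296, so deleted library 2 sat among the controls. The log2 fold change was 0.85 (95% interval 0.15 to 1.54, limma adjusted p = 0.157). Lum stayed between 127850 and 145145 in all 6 libraries, and Prelp lay at 72595 to 78230 in controls and 65137 to 69945 after deletion, 1.09-fold lower (limma adjusted p = 0.405). Omd held 1558 to 1862 against 1411 to 2379 normalized counts, with overlap.

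Of the remaining classes, Ogn overlapped (45035 to 52135 against 48358 to 68280 normalized counts), as did Podn (6996 to 7495 against 7475 to 8386). Chad, a cell-adhesive member first described in cartilage, held 417, 605 and 591 normalized counts in controls and 1074, 531 and 988 after deletion. As for Fmod, deleted library 2 lay within the controls, and the log2 fold change of 0.64 was not called (limma adjusted p = 0.215). Without that library both passed, Fmod at 1.23 (limma adjusted p = 0.0312) and Chad at 0.96 (limma adjusted p = 0.0469), and without deleted library 1 Bgn passed at 0.49 (limma adjusted p = 0.0241).

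**Figure D3:**
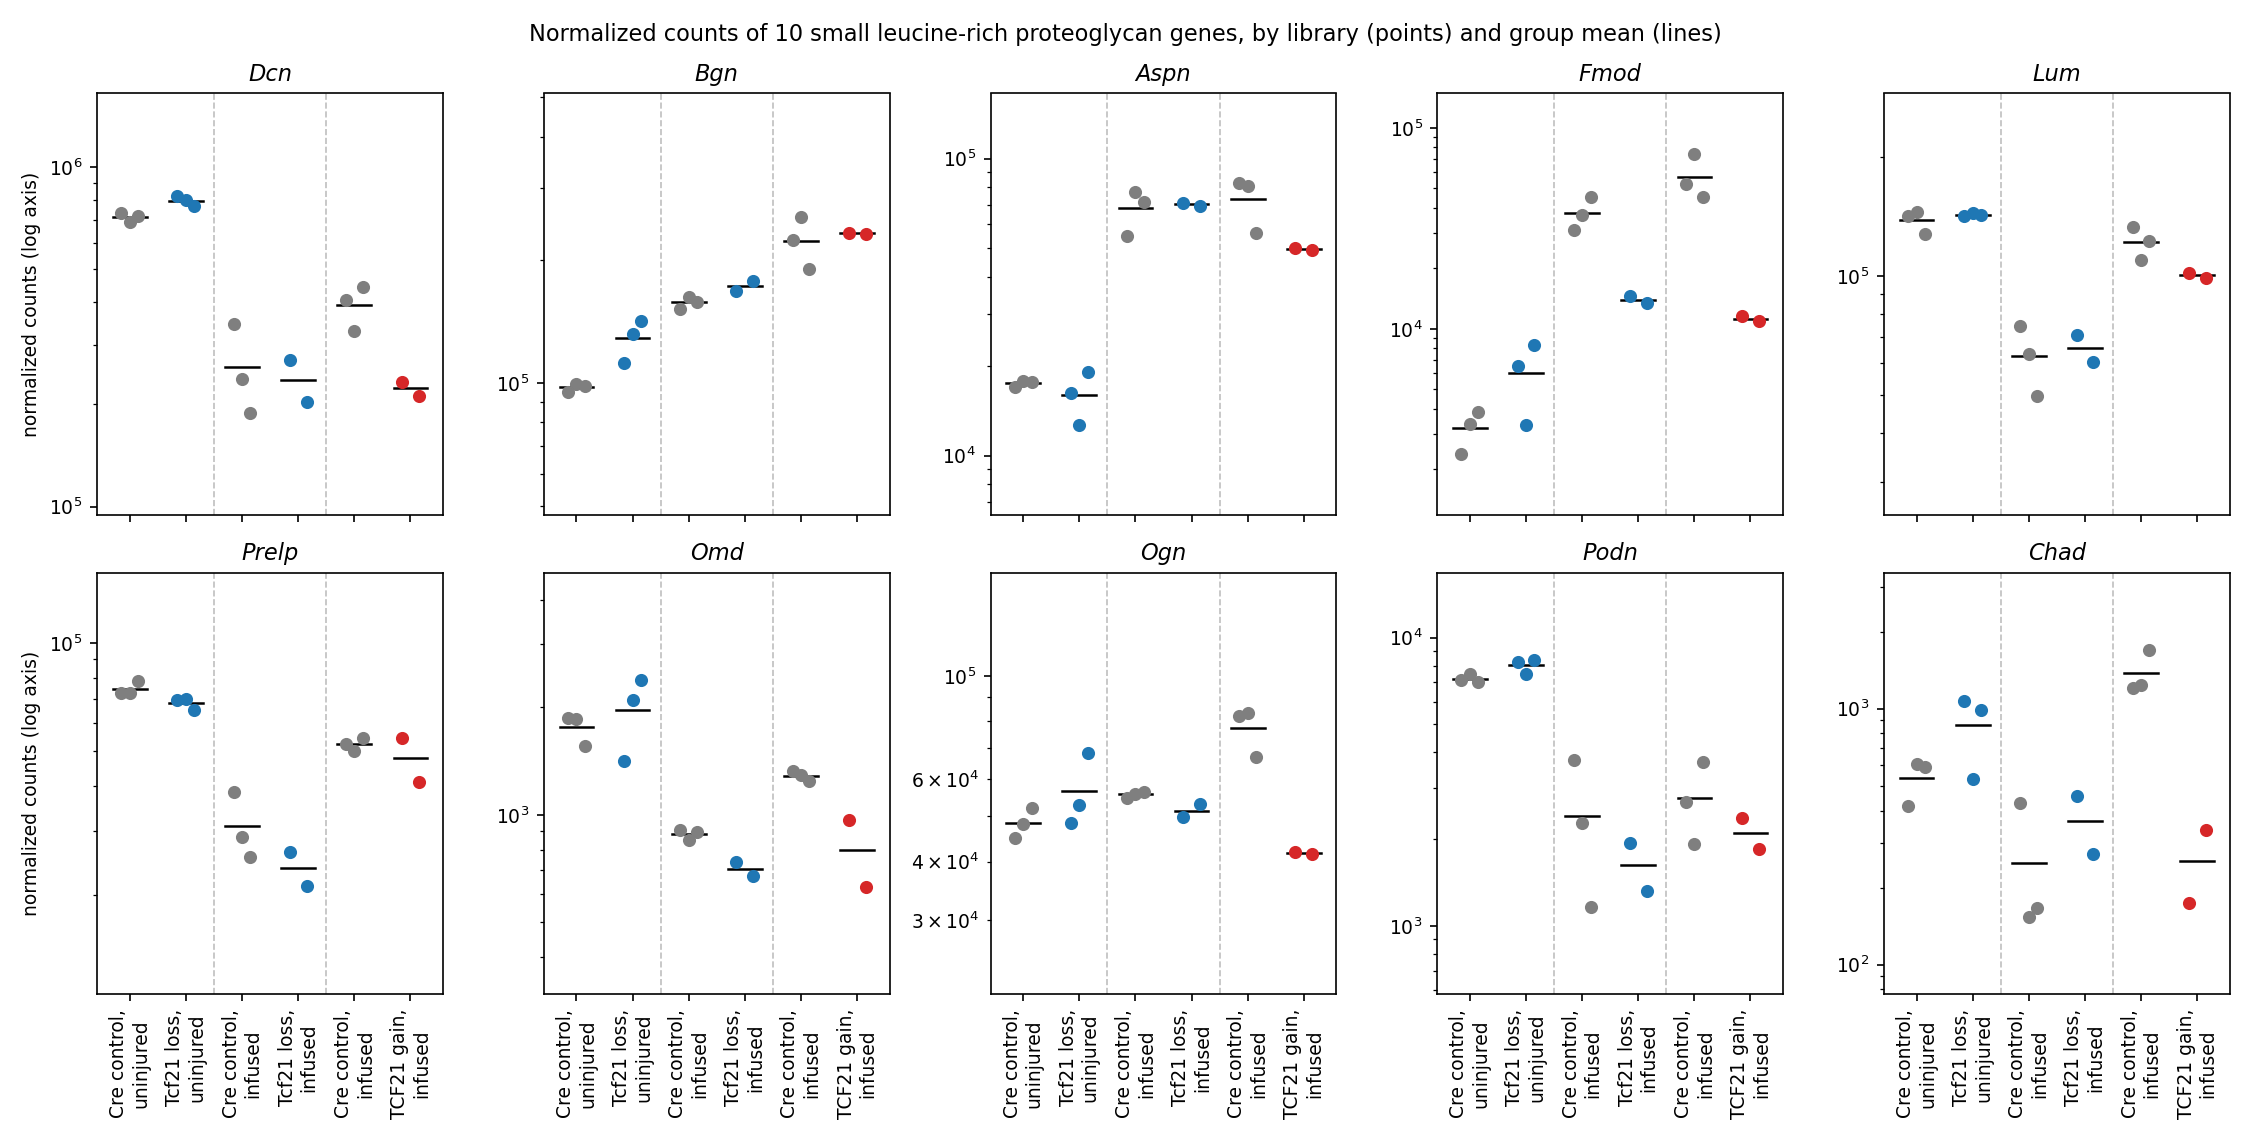
Normalized counts (log axis) of the 10 genes in each library (points) with the group mean (lines), in the uninjured loss, infused loss and infused gain tables, separated by dashed lines because they were normalized separately. Fmod shows the infused deleted libraries at 14535 and 13433 below controls at 30836 to 45490, and the gain libraries at 11532 and 10952 below controls at 45181 to 74085.

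After infusion, Fmod alone passed the test when Tcf21 was deleted. It held 30836, 36817 and 45490 normalized counts in controls and 14535 and 13433 in deleted libraries, with no overlap. Its mean was 2.70-fold lower (log2 fold change -1.41, 95% interval -1.84 to -0.99, SE 0.178, limma adjusted p = 0.0236). So 1 of 10 members was called, lower, against 0.912% of 14799 genes called in either direction, 0.588% lower and 0.324% higher. An unadjusted p below 0.05 was found for 2 members, beside 2376 of the 14799 genes. The members' median log2 fold change was -0.10, against 0.0002 over all genes. Over the 5 fits with 1 library left out, Fmod's log2 fold change ranged from -1.55 to -1.27. Without control library 2, deleted library 1 or deleted library 2, Fmod's adjusted p was 0.148, 0.142 and 0.251 by the same limma test.

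The other class II genes gave smaller values. Omd, which binds hydroxyapatite and is best known from bone, held 908, 849 and 894 normalized counts in controls and 738 and 673 after deletion, apart but not called (log2 fold change -0.33, limma adjusted p = 0.216). Lum held 74846, 63527 and 49551 against 70912 and 60435, fully within the control range. Prelp held 38561, 29009 and 25541 against 26377 and 21217 normalized counts, with overlap (log2 fold change -0.37, limma adjusted p = 0.415).

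No class I gene was called. Dcn held 345642, 238107 and 189081 normalized counts in controls, a range that enclosed the deleted libraries at 269776 and 202892. Bgn held 151898, 162461 and 157908 against 167446 and 177266, apart by 1.09-fold of the means (limma adjusted p = 0.792). Aspn, which binds collagen and inhibits transforming growth factor beta signalling, held 54988, 77202 and 71543 against 71053 and 69401 normalized counts.

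Ogn held 54850, 55803 and 56453 normalized counts in controls and 49760 and 53165 after deletion (log2 fold change -0.11, limma adjusted p = 0.715), although the groups did not overlap. In Podn and Chad the controls themselves ranged widely. Podn held 3752, 2280 and 1160 normalized counts against 1935 and 1323, and Chad 429, 153 and 167 against 457 and 271. Control library 1 was the highest control for Dcn, Lum, Prelp, Omd, Podn and Chad and the lowest for Fmod, Bgn, Ogn and Aspn. In all, 4 of 10 members had groups that did not overlap, 1 higher (Bgn) and 3 lower (Fmod, Ogn, Omd), beside 35% of all genes tested (17.3% higher and 17.7% lower).

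With TCF21 gain after infusion Fmod, Ogn and Chad fell, and no member rose. The 3 called members compare with 4.14% of 15369 genes called in either direction, 2.57% lower and 1.57% higher. An unadjusted p below 0.05 was found for 6 members, beside 3138 of the 15369 genes. In 9 of the 10 members the log2 fold change was below 0, in Bgn above, and the members' median was -0.63, against 0.01 over all genes. The same 9 were below 0 when libraries were scaled to equal totals or quantile normalized. Scaling to equal totals moved the median of all genes to 0.11 and the members' median to -0.53, and turned the 242 higher and 395 lower calls of all genes into 340 and 266. In 7 members every gain library lay below every control (Fmod, Dcn, Lum, Ogn, Omd, Aspn, Chad) and in 0 above, where 39.3% of all genes did not overlap, 20.1% below and 19.1% above.

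Among class II genes Fmod alone was called. It held 52307, 74085 and 45181 normalized counts in controls and 11532 and 10952 in gain libraries, 5.09-fold lower in the mean (log2 fold change -2.32, SE 0.200, limma adjusted p = 0.00446). The call held when any 1 of the 5 libraries was left out (limma adjusted p from 0.00261 to 0.0298). Omd held 1323, 1295 and 1247 against 967 and 630 normalized counts, apart but not called (log2 fold change -0.72, limma adjusted p = 0.0707). Lum held 132846, 109686 and 122360 against 101768 and 98798 (log2 fold change -0.27, limma adjusted p = 0.379), and Prelp overlapped at 52489, 50097 and 54456 against 54614 and 41037.

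Chad fell from 1206, 1235 and 1698 normalized counts in controls to 174 and 334 in gain libraries. This was 5.42-fold in the mean (log2 fold change -2.49, SE 0.280, limma adjusted p = 0.00771), and it was called with any 1 library left out (limma adjusted p from 0.0108 to 0.0304). Ogn fell from 81898, 83155 and 67005 to 41901 and 41582 normalized counts, by 1.85-fold (log2 fold change -0.88, SE 0.141, limma adjusted p = 0.0205). That call was lost without control library 1 or either gain library (limma adjusted p = 0.0811, 0.121 and 0.155). Podn overlapped, with 2689, 1924 and 3711 against 2375 and 1842 normalized counts.

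In class I, Dcn held 405962, 329763 and 442518 normalized counts in controls and 233370 and 212357 in gain libraries, 1.76-fold lower with no overlap (log2 fold change -0.81, 95% interval -1.37 to -0.25), but its limma adjusted p was 0.118. Aspn held 82797, 80930 and 56118 against 49953 and 49026 (log2 fold change -0.54, limma adjusted p = 0.170). Aspn passed without control library 3 (limma adjusted p = 0.0173) and Omd without gain library 1 (limma adjusted p = 0.0324). Bgn lay at 223076, 254866 and 189515 in controls and at 232932 and 231132 with gain, inside the control range, with a 95% interval of -0.43 to 0.57 for its log2 fold change.

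**Figure D4:**
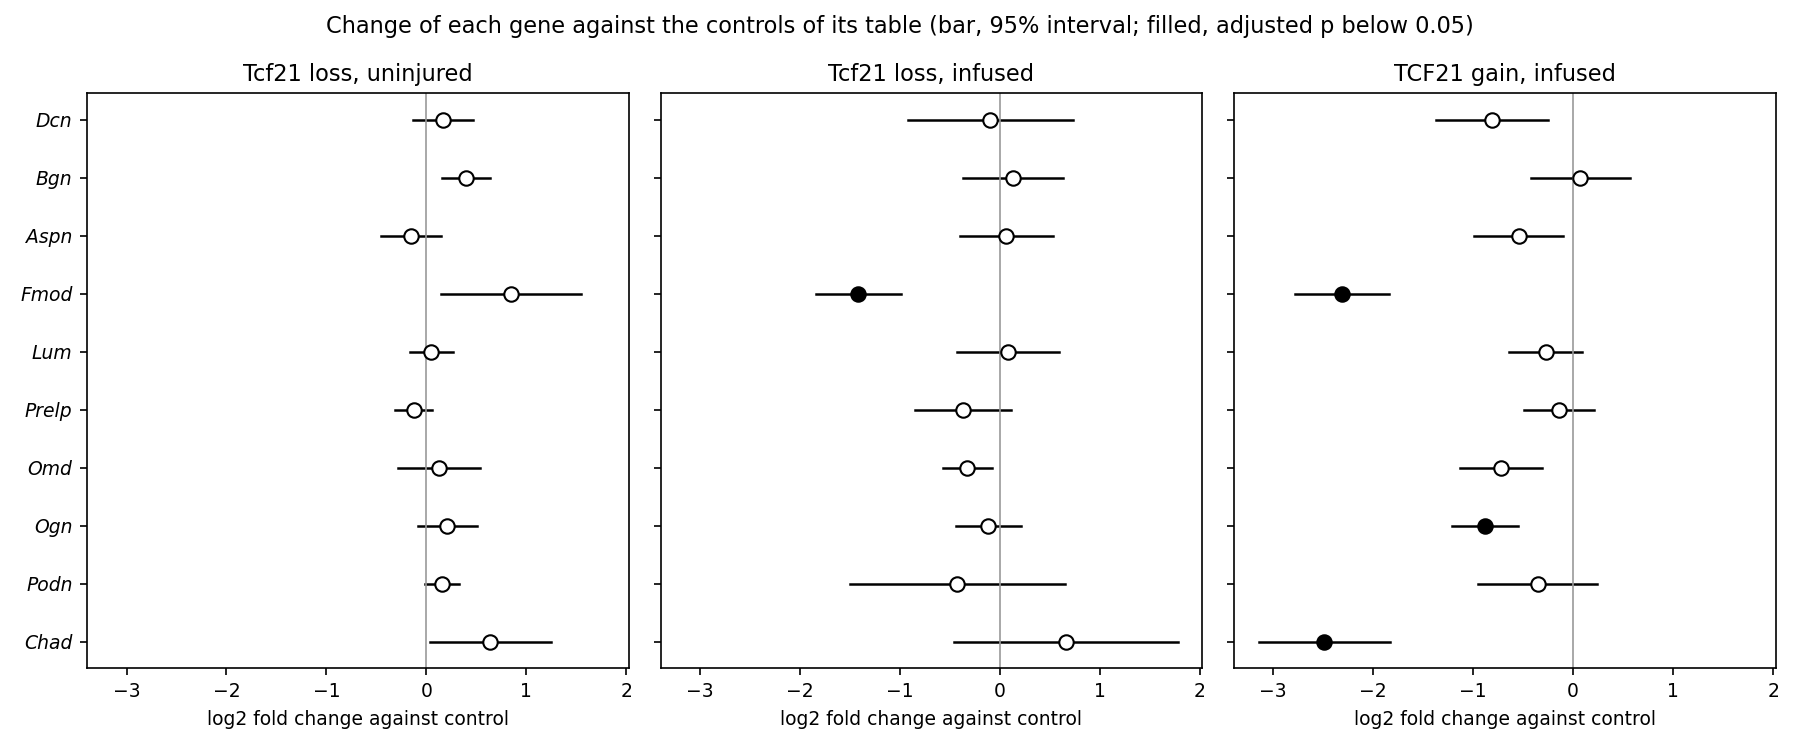
Log2 fold change of each gene against the controls of its own table (points) with its 95% interval (bars), for Tcf21 loss without injury, Tcf21 loss after infusion and TCF21 gain after infusion; filled points have a limma adjusted p below 0.05. Filled points are Fmod at -1.41 after infused loss and Fmod at -2.32, Ogn at -0.88 and Chad at -2.49 after gain.

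The summed family is weighted to Dcn, which was not called in the comparisons above. Dcn made up 64.7% of the sum in uninjured controls and 65.0% after deletion, and 39.2% in gain-arm controls and 31.4% with gain (means). The 10 genes took 2.87% to 2.95% of the normalized counts of a library in uninjured controls and 3.14% to 3.23% after deletion. After infusion they took 2.10% to 2.65% in controls and 2.02% to 2.42% after deletion, with overlap. In the gain arm they took 2.41% to 2.54% in controls and 1.84% to 1.92% with TCF21 gain. For Dcn and Bgn, 2 near relatives, the ratio of Bgn to Dcn normalized counts, without regard to length, was 0.549, 0.773 and 0.428 in gain-arm controls and 0.998 and 1.09 in gain libraries (log2 difference 0.88, exact two-sided permutation p = 0.2). Per kilobase of mean transcript length, Dcn stayed above Bgn in the gain libraries, at 177345 against 116219 (means), with ranges apart. The ratio of Fmod to Lum was 0.394, 0.675 and 0.369 in controls and 0.113 and 0.111 with gain (log2 difference -2.04, exact p = 0.2). After infused loss it was 0.412, 0.580 and 0.918 in controls and 0.205 and 0.222 after deletion (log2 difference -1.50, exact p = 0.2). Both are complete separations, and 0.2 is the smallest p that 2 against 3 libraries allow.

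The Bgn to Dcn ratio after infused loss overlapped (0.439, 0.682 and 0.835 against 0.621 and 0.874, log2 difference 0.22, exact p = 0.8). In uninjured hearts Fmod to Lum was 0.0167, 0.0232 and 0.0302 in controls and 0.0457, 0.0230 and 0.0580 after deletion (log2 difference 0.80, exact two-sided permutation p = 0.3). Bgn to Dcn was 0.130, 0.144 and 0.137 against 0.136, 0.165 and 0.184 (log2 difference 0.23, exact p = 0.3). With 3 against 3 libraries the smallest possible p is 0.1. Adjusted over the 6 exact ratio tests, p was 0.36 for all but Bgn to Dcn after infused loss, at 0.8.

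**Figure D5:**
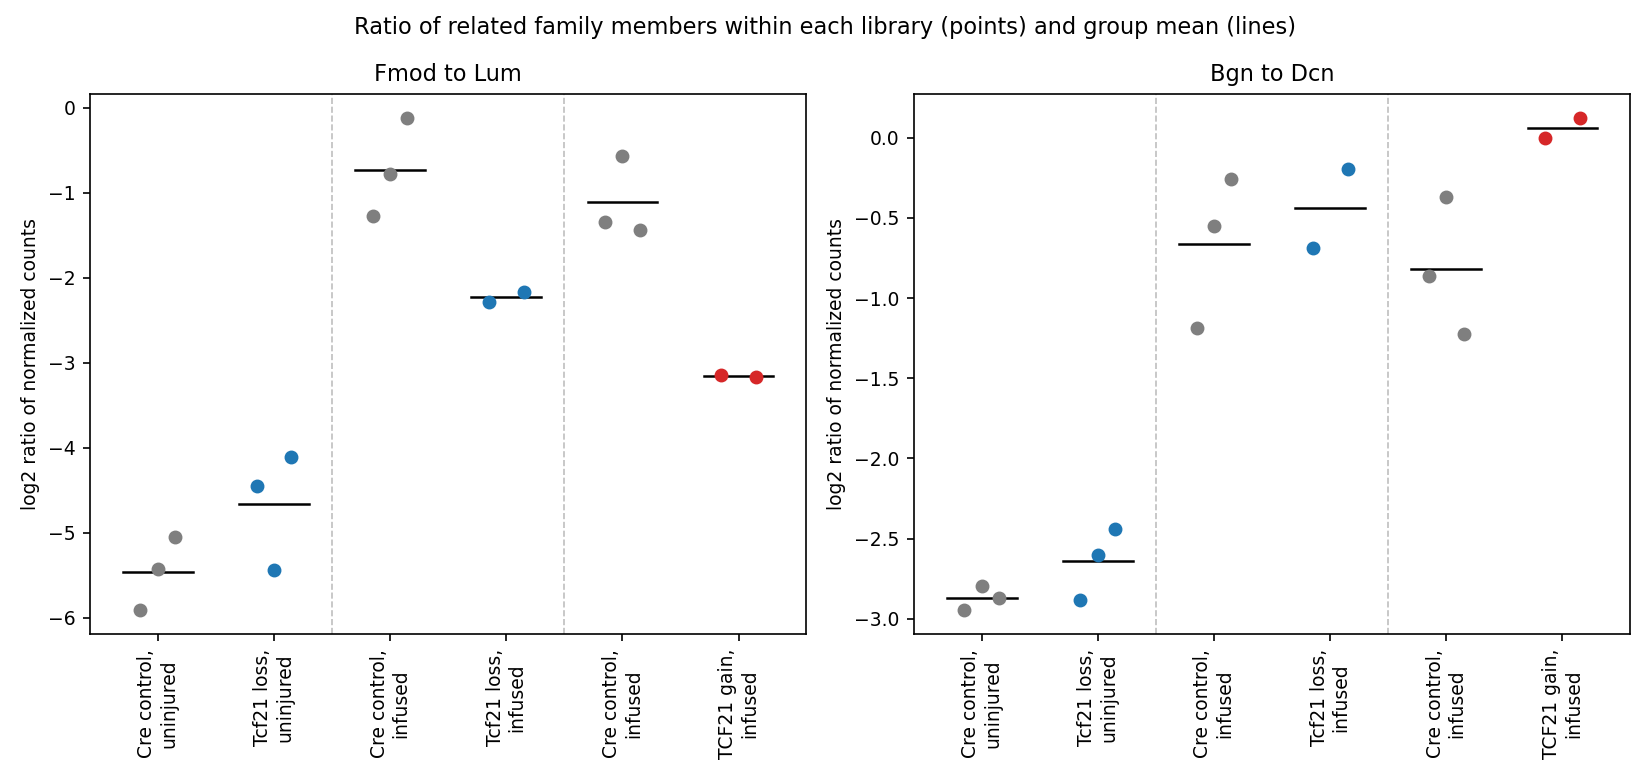
Log2 ratio of normalized counts within each library (points) and group mean (lines) for Fmod to Lum (left) and Bgn to Dcn (right), in the 6 groups, with dashed lines between the 3 tables. On the left, the gain libraries lie at -3.14 and -3.17 and their controls at -1.44 to -0.57; on the right, the gain libraries lie at 0.00 and 0.12 and their controls at -1.22 to -0.37.

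Whether an effect differed between comparisons was tested on differences of within-table differences, which share no library. For loss with against without infusion, 0 of 10 members passed by limma (0.149% of 14130 genes did, 0.0495% higher and 0.0991% lower). Beside 1642 of the 14130 genes with an unadjusted p below 0.05, 1 member had such a value. That one was Fmod, whose effect was 0.85 without and -1.41 with infusion, a log2 difference of -2.26 (95% interval -3.22 to -1.30, limma adjusted p = 0.100). It passed without uninjured deleted library 2 (-2.64, limma adjusted p = 0.00736). For gain against loss, both infused, Chad passed, against 2.93% of 14319 genes called in either direction, 1.22% lower and 1.71% higher. Chad's effect was -2.49 with gain and 0.66 with loss, a log2 difference of -3.15 (95% interval -4.56 to -1.74, limma adjusted p = 0.0301). Leaving out 1 library ended the call in 7 of 10 fits (each gain-arm control, gain library 1, loss-arm control 2 and both deleted libraries), with limma adjusted p up to 0.122. Ogn came next (-0.77, limma adjusted p = 0.0574). Fmod was lower in both arms, and the difference between them, -0.90, had a limma adjusted p of 0.162. The arms also differ in Cre driver, in the cells it marks and in table, which cannot be told apart from gain against loss. Chad's infused controls lay at 1379 normalized counts in the gain arm and 250 in the loss arm (means, in separately normalized tables).

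Other genes of the family were read from a list of 9, of which 8 were tested in the gain table. Ecm2, the relative beside Aspn, fell with TCF21 gain from 12720, 11858 and 11820 normalized counts to 7583 and 7455 (1.61-fold, log2 fold change -0.69, limma adjusted p = 0.00954). Epyc, a class III member best known from cartilage, fell from 532, 696 and 580 to 169 and 279 normalized counts (2.69-fold, log2 fold change -1.46, limma adjusted p = 0.0205). Ecm2 lost its call without gain library 1 or 2 (limma adjusted p up to 0.0764) and Epyc without control library 1 or gain library 1 (up to 0.0736). The 2 calls among 8 stand beside 4.14% of all genes, and the median of the 8 was -0.49, against 0.01. Kera, the keratan sulphate proteoglycan of the cornea, was near the floor at 20.0 to 35.8 in controls and was listed at 4.02 and 0 in gain libraries (limma adjusted p = 0.0599). Kera and the other 5 were not called. In the loss comparisons none of the 7 tested in each was called by limma, and 0 had an unadjusted p below 0.05. The 7 of infused loss include Ecm2, which that table holds at 51.0 to 102 normalized counts in controls, against 11820 to 12975 in the controls of the other tables, so no direction was read from it there.

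By position, the chromosome 13 genes Ecm2, Aspn, Omd and Ogn all had gain libraries below every control, 4 of 4, at log2 fold changes of -0.88 to -0.54, and 2 were called. The chromosome 10 genes Dcn, Lum, Kera and Epyc did so too, 4 of 4, at -3.52 to -0.27, with 1 called. On chromosome 1, Fmod did and its neighbours Prelp and Optc (opticin) did not. Over all genes tested, 20.1% had gain libraries below every control. Cenpp, which overlaps Aspn on the opposite strand, had a log2 fold change of 0.59 with gain (limma adjusted p = 0.194). In uninjured loss, the chromosome 13 genes had 0 of 4 apart, the chromosome 10 genes 1 of 4, Dcn, higher, and the chromosome 1 genes 1 of 3, Prelp, lower. Of all genes tested in uninjured loss 27.7% were apart, 14.1% higher and 13.6% lower. In infused loss, Omd and Ogn on chromosome 13 lay below every control, Aspn overlapped and none was called, with Ecm2 not read there. On chromosome 10, 0 of 4 were apart, and on chromosome 1 Fmod was lower and called. Of all genes tested there, 17.7% lay below every control.

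Among genes that build the sugar chains, 2 of 21 tested were called in gain (4.14% of all genes) and 1 of 20 in infused loss (0.912% of all genes). Of the 21 tested genes for the linker and the chondroitin or dermatan sulphate chain, gain raised Chsy1, a chondroitin synthase (3352 ± 1623, n = 2, against 911 ± 154 normalized counts, SD, n = 3, 3.68-fold, limma adjusted p = 0.0199). It lowered Csgalnact1, which starts the chain, by 1.53-fold (limma adjusted p = 0.0230). Chsy1 lost its call without control library 1 or gain library 2, with log2 fold changes of 1.29 to 2.32 over the 5 fits, and Csgalnact1 without control library 1 or either gain library (limma adjusted p up to 0.155). Infused loss raised the synthase Chsy3, 2.63-fold (1545 ± 76.7, n = 2, against 587 ± 67.9 normalized counts, SD, n = 3, limma adjusted p = 0.00609), a call lost without either deleted library (limma adjusted p up to 0.107). In gain 6 and in infused loss 4 of the list had an unadjusted p below 0.05, and the list's median log2 fold changes were 0.06, 0.09 and -0.05 in uninjured loss, infused loss and gain. Uninjured loss moved 0 of 21 by limma, with 4 at an unadjusted p below 0.05. Lists for keratan sulphate (5, 5 and 6 tested in uninjured loss, infused loss and gain) and for nucleotide sugar and sulphate donors (8 tested in each) had 0 calls by limma in the 3 comparisons. At an unadjusted p below 0.05 they had 1, 1 and 1, and 1, 0 and 1 genes. Beside such counts, for these lists and those below, stand all genes with an unadjusted p below 0.05. These were 3290 of 15544 in uninjured loss, 2376 of 14799 in infused loss and 3138 of 15369 in gain.

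The collagens listed as partners of the proteoglycans (fibrillar, fibril-associated and type VI) had 0 calls against controls among 12, 12 and 13 tested by limma, with 2, 1 and 5 at an unadjusted p below 0.05. Col6a3 was lower in uninjured loss (25691 ± 3727 against 38210 ± 5723 normalized counts, SD, n = 3 and 3) and in infused loss (39728 ± 4308 against 59967 ± 5644, n = 2 and 3), without a call. With gain it lay the other way, at 85832 ± 10720 against 67925 ± 1166 (n = 2 and 3), with no overlap and no call (limma adjusted p = 0.233). Col12a1 lay at 9733 ± 2187 with gain and 19885 ± 6848 in controls, also uncalled. Of 13 signalling partners tested in the gain table, 1 rose and 3 fell, beside 1.57% of all genes higher and 2.57% lower. The median of the 13 was -0.16. Tgfb1 rose 1.47-fold (limma adjusted p = 0.0311), while Tgfb3 fell 1.69-fold (limma adjusted p = 0.0242), Egfr, the receptor that Dcn binds, fell 1.51-fold (limma adjusted p = 0.0196), and Tgfb2 fell 1.45-fold (limma adjusted p = 0.0443). Tgfb2 lies outside the naming rule and was added after its values were seen. Each of these 4 calls was lost without control library 1, gain library 1 or gain library 2, and those of Tgfb1 and Tgfb2 also without control library 2 (limma adjusted p up to 0.173 for Tgfb1, 0.226 for Tgfb2, 0.147 for Tgfb3 and 0.124 for Egfr). Scaled to equal totals, Tgfb2 was not called (limma adjusted p = 0.0638). Eln, which encodes elastin, fell 2.50-fold in uninjured loss (10334 ± 1787 against 25827 ± 3958 normalized counts, SD, n = 3 and 3, limma adjusted p = 0.00294), the only 1 of 13 called there, beside 3.58% of all genes. In infused loss 0 of 13 were called by limma, with 2 at an unadjusted p below 0.05.

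Of the proteases that cut these proteins, 1 of 9 was called in uninjured loss (3.58% of all genes): Mmp3 (stromelysin 1) fell 9.64-fold, from 5352 ± 1101 to 555 ± 274 normalized counts (SD, n = 3 and 3, limma adjusted p = 0.000895). In infused loss 0 of 8 and in gain 0 of 10 were called by limma, each with 2 at an unadjusted p below 0.05. Among other proteoglycans, uninjured loss lowered 2 of 20, beside 1.96% of all genes. These were Cspg4, a pericyte proteoglycan, 3.42-fold (limma adjusted p = 0.00137) and the glypican Gpc3 1.74-fold (limma adjusted p = 0.00802). Gain raised Col18a1, a basement membrane proteoglycan, 3.35-fold (limma adjusted p = 0.00520) and lowered Gpc3 1.74-fold (limma adjusted p = 0.0284) and the syndecan Sdc4 1.47-fold (limma adjusted p = 0.0467), 3 of 22 beside 4.14% of all genes. Sdc4 lost its call whichever of the 5 libraries was left out (limma adjusted p from 0.0618 to 0.262), and Gpc3 without control library 1 or either gain library (up to 0.162). Scaled to equal totals, neither Sdc4 nor Gpc3 was called (limma adjusted p = 0.0741 and 0.0542). In uninjured loss Gpc3 lost its call without control library 1 or 3 (limma adjusted p up to 0.0555). Infused loss moved 0 of 21 by limma, with 7 at an unadjusted p below 0.05.

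The genes whose pattern was most like each member were sought over the 16 libraries, by Pearson's r of log2 values minus the control mean of the table, among 11210 genes. These r describe libraries that share tables, controls and groups, and carry no test. Comp, a cartilage and tendon matrix protein that binds collagen, was most like Fmod (r = 0.95), followed by Rcan2 (r = 0.93). Comp fell 3.15-fold with gain (26508, 37318 and 22312 against 11452 and 6799 normalized counts, limma adjusted p = 0.0205) and lay at 19610, 22778 and 30295 against 10868 and 10735 in infused loss (limma adjusted p = 0.0534). The gain call was lost without control library 1 or gain library 2 (limma adjusted p up to 0.108). It rose 2.13-fold in uninjured loss (3187, 3888 and 4273 against 8929, 7663 and 7544, limma adjusted p = 0.00319). Dcn was most like Adh1 (r = 0.98), Podn like Htra3 (0.97), Ogn like Megf9 and Nox4 (both 0.96), Chad like Espn (0.95), Prelp like Tcf7l1 (0.95) and Lum like Clec3b (0.95). Omd was most like Pik3ip1 (0.91), Bgn like Oxct1 (0.90) and Aspn like Rhoq (0.89). No member was the most alike gene of another. Between members, r was highest for Fmod with Ogn (0.88), Dcn with Lum (0.86), Dcn with Chad (0.85) and Ogn with Omd (0.82), and lowest for Bgn with Prelp (-0.36).

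Several members, Chad, Fmod and Prelp among them, are also known from valve, tendon and cartilage, so markers of those tissues are set beside the results. The summed level of the 10 listed markers (8 of them in the uninjured table) was 10642 to 13415 in uninjured controls and 17808 to 22574 after deletion. Of the 8, Comp and Cytl1 rose and Sox9 fell by the limma threshold, beside 1.63% of all genes higher and 1.96% lower. Cytl1 was not called without control library 3 (limma adjusted p = 0.0564), nor Sox9 without any 1 control or without deleted library 3 (up to 0.145). After infusion it was 69504 to 114980 in controls and 91920 to 93932 after deletion. In the gain arm it was 78519 to 126539 in controls and 71563 to 79521 with gain, overlapping, where 4 of 10 markers fell by the limma threshold (Comp, Cytl1, Cilp2, Tnmd) and 0 rose, Cytl1 not without gain library 2 (limma adjusted p = 0.0900). Over all genes 2.57% fell and 1.57% rose by that threshold. Cilp2 lay at 544 in gain-arm controls and 87.9 with gain, and the tendon gene Tnmd at 454 and 40.1 (means). The part of such cells in the fall of Fmod, Chad and Ogn was not tested, and in bulk libraries fewer cells of a type and less RNA per cell cannot be told apart.

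The 7 fibroblast markers (Pdgfra, Col1a1, Col1a2, Gsn, Ddr2, Tcf21 and Vim) were all present in each table, with summed levels of 1439190 or more in every library. Their sum was 2078880 to 2357130 in gain-arm controls and 1504990 to 1542300 with gain, lower like the family sum, and 2948740 to 3255960 against 2628620 to 2729270 in uninjured loss, opposite to it. Such sums weigh abundant genes most. With gain Col1a1 (551107 against 651693) and Col1a2 (524190 against 757580) were lower and uncalled, and Pdgfra was higher (19929 against 18288, means). In uninjured loss Col1a1 (102759 against 98210) and Col1a2 (137998 against 134892) were slightly higher, and Pdgfra was level (53114 against 53220, means). The lower sum there lies in the other listed markers, which include the deleted Tcf21. Tcf21 is the manipulated gene, and of the 7 it alone had an unadjusted p below 0.05 with gain, where it rose. Mural markers summed to 15745 to 17478 in uninjured controls and 10373 to 11639 after deletion, with 4 of 10 called lower, beside 1.96% of all genes. Myeloid markers summed to 1778 to 2642 in gain-arm controls and 2340 to 4641 with gain, with overlap and 0 of 10 called, and to 828 to 918 against 1008 to 1442 in uninjured loss, without overlap. Endothelial markers summed to 8018 to 11084 in gain-arm controls and 5232 to 6489 with gain, and 3746 to 6691 against 2872 to 3237 in infused loss. In uninjured loss they summed to 15529 to 15746 in controls and 12011 to 13679 after deletion, also apart. Erythroid markers summed to 19.3 to 44.9 in infused loss-arm controls against 151 to 460 after deletion, and to 15.1 to 63.9 in gain-arm controls against 65.2 to 176 with gain. Cardiomyocyte markers summed to 799 to 854 in gain-arm controls and 992 to 1064 with gain. Of the markers held by a table, none was at 0 throughout a group except Cdh5 in the uninjured deleted and Adgre1 in the infused deleted libraries. What part any of these has in the members' values was not tested.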

How the data were processed

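RNA of sorted fibroblasts was amplified with a SMART-seq V4 low-input kit, per the labels' protocols. What the authors deposited is a normalized count signal per gene (estimated counts, scaled within each of 3 tables). Per the submitters' processing notes, kallisto, DESeq2 and the build GRCm38 were used, with no version stated. Whole reads were not recovered, since low values lay on whole steps (within 0.03) in only 35.7% to 67.5% of cases, so no count model was fitted here. Genes with a table mean of at least 10 were tested on log2(value + 1), which understates changes of low genes, with limma 3.58.1 in R 4.3.3 (variance trend, 2 groups per fit, no covariate); fold values are ratios of group means. The fits were tested on simulated data. Per-library totals were taken as depth. Library ratios had exact two-sided permutation tests. Alternatives varied pseudocount, filter, scaling, variance model, library weights and replicate block, and left out each library.

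The members and lists were chosen with earlier results of these data known. Named genes were all members, Tcf21, up to 3 tested genes of each list with the smallest p in a comparison, and the 2 genes most alike to each member over 16 libraries; from these the called ones and a few others are printed, and marker genes are named where called. Replicate numbers did not pair libraries (correlation of same-numbered deviations -0.05 to 0.18).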

Additional observations from a re-analysis of the deposited data

Results flagged for a closer look

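Each of the following had a log2 difference of effects that passed the limma test (adjusted p below 0.05) between comparisons. For loss with against without infusion these were Comp, -2.24 (adjusted p = 0.00157), which rose in uninjured loss and was lower, short of the threshold, in infused loss, and Cspg4, 1.62 (adjusted p = 0.0243), which fell in uninjured loss. For gain against loss, both infused, in arms that also differ in Cre driver and table, Chad differed by -3.15 (limma adjusted p = 0.0301). The chain synthase Chsy3, which rose in infused loss, differed by -1.35 (limma adjusted p = 0.0168), and Csgalnact1, which fell with gain, by -0.76 (limma adjusted p = 0.0398). Tgfb3 differed by -0.85 (limma adjusted p = 0.0273), Eln by 1.64 (limma adjusted p = 0.00503) and Col18a1 by 1.94 (limma adjusted p = 0.00142). Without the variance trend Cspg4, Chad, Csgalnact1 and Tgfb3 were not called (limma adjusted p = 0.0705, 0.0746, 0.0905 and 0.0511). Scaled to equal totals, Csgalnact1 was not called (limma adjusted p = 0.0634). With 1 library left out, limma adjusted p stayed below 0.05 for Comp (up to 0.0108), Eln (up to 0.0278) and Col18a1 (up to 0.0103), and rose above it in 5 of 11 fits for Cspg4 and in 7, 2, 8 and 5 of 10 for Chad, Chsy3, Csgalnact1 and Tgfb3.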

How the results depend on the processing

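The number of members past the threshold depended on the variance model, on single libraries and, for some comparisons, on the replicate block, and not on the pseudocount or the scaling tried. Without a variance trend the 1 call of infused loss, the 3 of gain and the 1 of gain against loss became 0, 0 and 0, and Fmod, Chad and Ogn had limma adjusted p of 0.0623, 0.0723 and 0.0839 in gain. Without the trend the gain calls of Ecm2, Epyc, Chsy1, Csgalnact1, Tgfb1, Tgfb2, Tgfb3, Egfr, Col18a1, Gpc3, Sdc4, Comp, Cytl1 and Tnmd were lost too (limma adjusted p from 0.0631 to 0.166). So were those of Comp, Eln, Gpc3, Cytl1 and Sox9 in uninjured loss (0.0592, 0.0592, 0.0747, 0.0998 and 0.134). Tcf21 itself, the overexpressed gene, was not called in gain without the trend (limma adjusted p = 0.0623), where 25 of all genes passed. The call of Sox9 was also lost with the replicate block (limma adjusted p = 0.0611). With library weights uninjured loss went from 0 to 1 call (Bgn) and gain against loss from 1 to 2, as with a table mean of at least 50 (2, Ogn added). With the replicate number as a block, which did not pair libraries, the counts were 3 for infused loss (Fmod, Prelp, Podn) and 6 for gain (Fmod, Dcn, Ogn, Omd, Aspn, Chad). They were 1 for loss by infusion (Podn) and 4 for gain against loss (Fmod, Ogn, Podn, Chad), and uninjured loss stayed at 0. In infused loss and gain only controls have a replicate 3, so the block gave control library 3 a term of its own. The log2 values there are those of the fit without that library (Podn -0.87 in infused loss, Aspn -0.73 in gain). The extra calls are therefore no separate check. With 1 library left out the counts ranged over 0 to 2, 0 to 1, 2 to 4, 0 to 1 and 0 to 1 in the order uninjured loss, infused loss, gain, loss by infusion and gain against loss. A group left with 1 library was assumed to vary like the other. The log2 difference of the Bgn to Dcn ratio in infused loss ranged from -0.036 to 0.47.

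Uncalled members changed sign in some fits. Quantile normalization gave Dcn 0.069 in infused loss and 0.069 in loss by infusion, and gave Bgn 0.067 in gain against loss (0.056 with equal totals). Library weights gave Aspn -0.051 in infused loss. The block gave Lum -0.075 in infused loss and -0.13 in loss by infusion, Chad -0.18 in loss by infusion and Bgn -0.039 in gain. These equal the values without infused control library 3, so the ranges that follow include them. With 1 library left out, log2 values ranged from -0.0056 to 0.086 (Lum), -0.029 to 0.35 (Omd) and -0.29 to 0.0068 (Aspn) in uninjured loss, from -0.30 to 0.14 (Dcn), -0.075 to 0.22 (Lum) and -0.082 to 0.16 (Aspn) in infused loss, and from -0.039 to 0.17 (Bgn) and -0.35 to 0.062 (Prelp) in gain. They ranged from -0.13 to 0.17 (Lum) and -0.35 to 0.49 (Chad) in loss by infusion, and from -0.17 to 0.044 (Bgn) and -0.33 to 0.51 (Podn) in gain against loss.

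Over all genes, calls numbered 557, 135 and 637 in uninjured loss, infused loss and gain; they were 94, 72 and 25 without the trend, 949, 308 and 1013 with weights, 227, 1462 and 1842 with the block, and 88 to 875, 32 to 175 and 118 to 819 with 1 library left out. The causes of these changes were not tested. With the longest transcript, levels per kilobase of Fmod, Dcn, Bgn, Omd and Podn moved by more than their SD in at least 1 control group. Depth is known only as normalized totals, so no counting error was set on low members such as Chad.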
